A study of Mus musculus with 11 samples.

Results

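The miR-181 family was represented on the custom mouse miRNA array by 3 miRNAs, mmu-miR-181a, mmu-miR-181b and mmu-miR-181c. They were found by name, as every plus-strand mouse spot described as mmu-miR-181 with any letter. Together they held 12 of the 1336 plus-strand mouse spots, 4 for each of the 3 miRNAs among 334. Total RNA came from mammary glands of pregnant female mice of 3 backgrounds, with 2 FVB, 3 FVB129B6 and 3 Balb/C arrays, and from 3 primary mammary tumors of female C3(1)/Tag mice, which are labelled with the FVB strain. The tumor mice carry a simian virus 40 T antigen transgene driven by the rat C3(1) promoter, so ducts of the gland are the main but not the sole site of its expression. The glands are labelled as normal. Late-pregnant glands were used because they are rich in epithelium. The labels do not give ages, and 2 of the 3 Balb/C arrays have titles that could name both sides of 1 mouse.

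MicroRNAs are short RNAs that repress messenger RNAs by base pairing, mainly through the seed at bases 2 to 8, so members of a family with a common seed share predicted targets. The miR-181 family is best known from blood cell development, where miR-181a tunes the response of T cells to antigen. In mammary epithelial and breast cancer cells the family has been linked to transforming growth factor beta (TGF-beta) signaling and epithelial-mesenchymal transition (EMT).

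The mature sequences are shown because the members share a seed and the array has to tell them apart by the remaining bases. They are taken from RefSeq (GRCm38.p6), 5′ to 3′, with the seed in capitals, and miR-181d, which was not analysed here, is included for comparison.
mmu-miR-181a: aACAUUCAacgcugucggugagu
mmu-miR-181b: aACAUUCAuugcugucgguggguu
mmu-miR-181c: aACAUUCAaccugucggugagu
mmu-miR-181d: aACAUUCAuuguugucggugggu
Of the 334 miRNAs on the array, 237 could be matched by name and probe to a RefSeq mature sequence, and only these 3 of them carried this seed. The miR-181a probe held the complement of all 23 bases of its miRNA and the miR-181c probe that of all 22, whereas the miR-181b probe held that of the first 22 of 24. The stretch targeted by the miR-181a probe differed from miR-181c by 1 edit and from miR-181b by 3, which were A9T, C10T and A21G when positions are counted from the 5′ end of the miRNA in DNA letters. The stretch targeted by the miR-181b probe differed from miR-181d by 1 edit, C12T. How far each probe also captured its nearest relative was not tested.

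Identical mature miR-181a is encoded by Mir181a-1 (chr1:137966468-137966490, plus strand) and Mir181a-2 (chr2:38852741-38852763, plus strand). Mature miR-181b is likewise encoded by Mir181b-1 (chr1:137966650-137966673, plus strand) and Mir181b-2 (chr2:38853845-38853868, plus strand). The chromosome 2 pair lies within the spans of Nr6a1, which encodes an orphan nuclear receptor, and of the long noncoding Nr6a1os, whereas no other listed gene spans the chromosome 1 pair. Mir181c (chr8:84178924-84178945, minus strand) has its own locus beside Mir181d (chr8:84178759-84178781, minus strand), with 85 bases between the hairpins. The array reads mature miRNA, so the copies on chromosomes 1 and 2 cannot be told apart.

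All 3 members gave strong signals in every gland. Levels are given as the log2 of the green signal over the median spot of the same array, averaged over spots, so 0 is the typical spot of an array, and because probes differ in brightness a level is compared only with the same member on other arrays. The scanner program judges each spot against its local background, and a miRNA was taken as detected, or well above background, where 50% or more of its spots passed. Each member was detected on all 8 gland arrays. On the tumor arrays miR-181b alone was detected, on replicate 3.

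miR-181a had levels of 4.66 and 5.73 in FVB glands. It had levels of 4.05, 4.09 and 4.28 in FVB129B6 glands, and of 3.88, 3.90 and 4.16 in Balb/C glands. Both FVB glands were thus above all 6 other glands, whereas the ranges of the other strains overlapped. The group means were 5.20 ± 0.76 (SD, n = 2) in FVB, 4.14 ± 0.12 (SD, n = 3) in FVB129B6 and 3.98 ± 0.15 (SD, n = 3) in Balb/C.

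miR-181b, which differs from miR-181a just outside the seed, had levels of 3.63 and 4.62 in FVB glands. Its levels were 3.66, 3.37 and 3.74 in FVB129B6 glands and 2.85, 2.62 and 3.17 in Balb/C glands. All Balb/C glands lay below all other glands, and the FVB range enclosed 2 of the 3 FVB129B6 values. miR-181c, the member with a locus of its own, had levels of 2.11 and 2.33 in FVB, of 2.59, 2.27 and 2.75 in FVB129B6 and of 2.46, 2.29 and 2.90 in Balb/C glands. The 3 strains overlapped for miR-181c, with means of 2.22 ± 0.16 (SD, n = 2), 2.54 ± 0.24 (SD, n = 3) and 2.55 ± 0.32 (SD, n = 3).

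**Figure D1:**
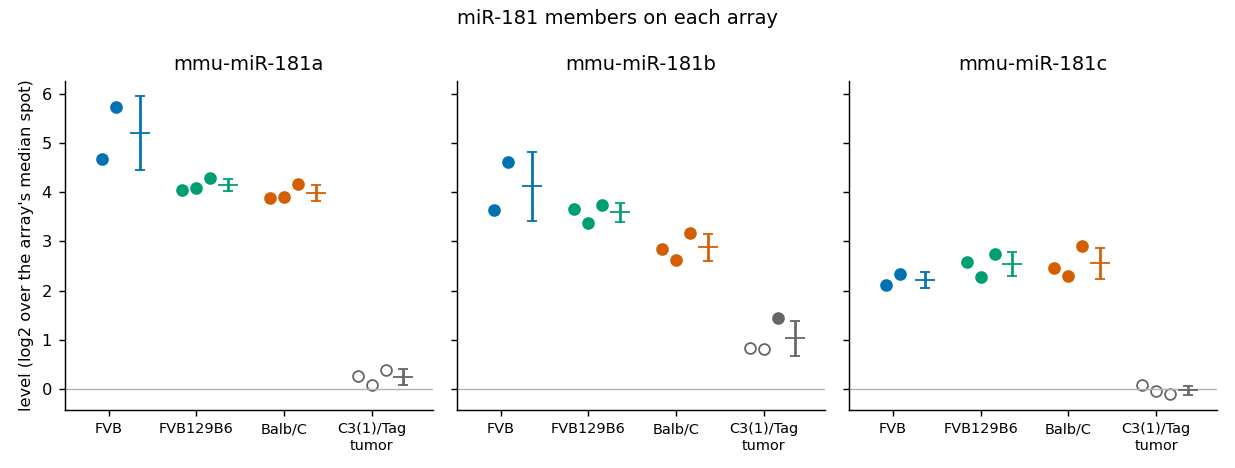
Level of each miR-181 member (log2 over the median spot of the array) on every array, by group, with open points where fewer than 50% of the spots were well above background and a bar for the group mean ± SD. Each panel is to be read on its own. On this scale miR-181a and miR-181b spread by strain while miR-181c stayed between 2.11 and 2.90 in all glands. In green intensity, by contrast, FVB overlapped the other strains for miR-181a and not for miR-181c.

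The strains were compared to ask whether the genetic background of a gland alters its miRNAs. On the scale of array medians, miR-181a (adjusted p = 0.0300) and miR-181b (adjusted p = 0.0361) differed among the 3 strains in limma's moderated F-test, and miR-181c did not (adjusted p = 0.439). This has to be read against a high background, since 120 of all 261 miRNAs tested, or 46.0%, differed by the same rule. Compared with FVB glands, Balb/C glands had lower miR-181a, with a log2 difference of -1.21 ± 0.30 (SE, adjusted p = 0.0176), and lower miR-181b, with -1.24 ± 0.31 (SE, adjusted p = 0.0186), and both differences turned their sign when arrays were not scaled. Of all miRNAs tested, 32.2% were called lower in Balb/C. The log2 difference of miR-181c was 0.33 ± 0.24 (SE, adjusted p = 0.286).

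Between FVB129B6 and FVB glands the test called miR-181a alone, with a log2 difference of -1.06 ± 0.30 (SE, adjusted p = 0.0263), against 31.4% of all miRNAs called lower, and its sign turned without scaling and for green over red. The difference was -0.53 (adjusted p = 0.209) for miR-181b and 0.32 (adjusted p = 0.309) for miR-181c. No member was called between Balb/C and FVB129B6 glands, where 3.45% of all miRNAs were, and the largest difference there was -0.71 (adjusted p = 0.207) for miR-181b. These calls rested on few arrays. With 1 FVB129B6 or Balb/C array left out, the F-test called 76 to 103 of all 255 to 257 miRNAs tested, beside 120 of 261 with all arrays. The F-test called no member without any one of FVB129B6 replicates 1 and 2, Balb/C replicates 1 and 2 and FVB replicate 2, and 1 without FVB129B6 replicate 3. Without FVB replicate 2 no member was called in any strain test, and the Balb/C minus FVB difference was -0.68 (adjusted p = 0.0511) for miR-181a and -0.74 (adjusted p = 0.0861) for miR-181b. Without FVB129B6 replicate 1 or 2, the FVB129B6 difference of miR-181a had adjusted p-values of 0.0769 and 0.0741, and without FVB replicate 1 that of miR-181b was -1.03 (adjusted p = 0.0273).

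The FVB arrays were dimmer than those of the other glands. The median green intensity was 245.5 and 188.5 on the FVB arrays, against 508 to 583 on the Balb/C and 520.5 to 671.5 on the FVB129B6 arrays. The intensities of miR-181a overlapped between FVB and the other strains nonetheless, with means of 6228 and 10025 in FVB and 7618 to 11450 in the other glands. Those of miR-181c did not overlap, with 1060 and 949 in FVB and 2483 to 4188 in the other glands. The FVB arrays also had a column of the slide to themselves, so the FVB strain and that column cannot be told apart.

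**Figure D2:**
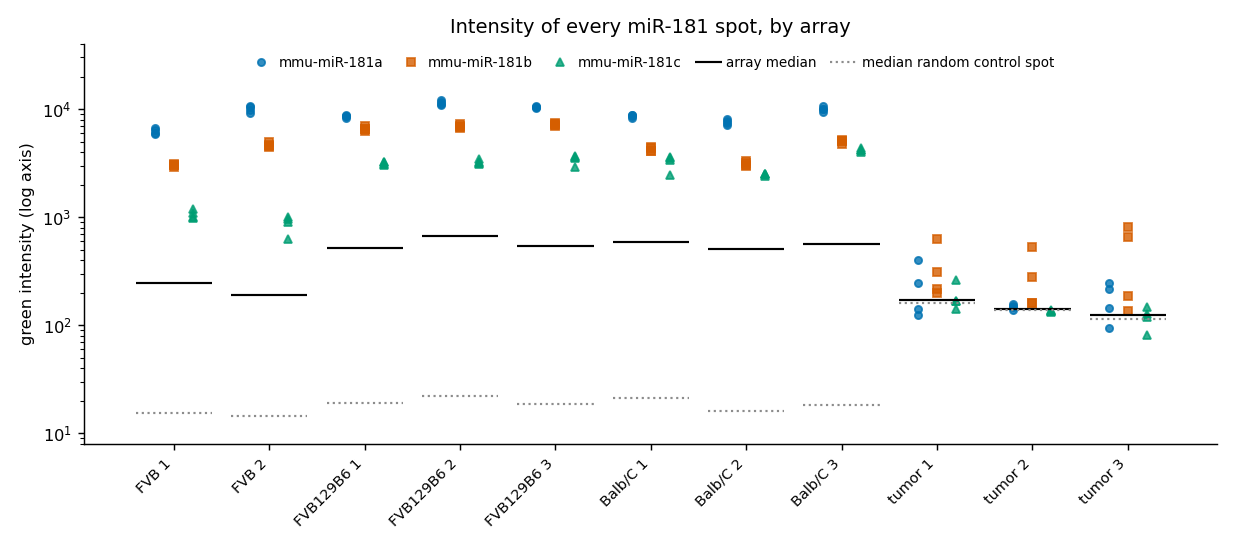
Green intensity (log axis) of each of the 4 spots of every miR-181 member on the 11 arrays, with the median of all mouse spots and the median of 16 random 22-base control spots on the same array. Member spots lie far above the control spots in glands and overlap them on the 3 tumor arrays, and the miR-181c spots of the FVB arrays lie below those of all other glands.

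Relative to the median difference of all 261 miRNAs, which was -0.48 between Balb/C and FVB glands on the scale of array medians, miR-181a lay 0.73 lower and miR-181b 0.76 lower, and miR-181c lay 0.81 higher. Of the 7 scalings used, 4 shift each array by a constant, which cancels here, so they give these same values. The other 3 could differ. With quantiles, normexp and green over red, miR-181a lay at -0.56, -0.22 and -0.52 against that median, miR-181b at -0.59, -0.26 and -0.79, and miR-181c at 0.61, 0.95 and 0.69. The median itself was 0.87 without scaling, so the sign of a difference from FVB glands depends on the scaling for any miRNA near it. The calls varied with the scaling. miR-181a was called lower in Balb/C under 1 of the 7 and miR-181b under 2, and miR-181c was called higher under 3. Those 3 were no scaling, where 151 of the 261 miRNAs were called higher and 0 lower, normexp, where 46 were called higher, and the median of the miRNAs detected on all arrays, where 43 were. Of all miRNAs, 15 were called higher and 84 lower in Balb/C with array medians, but 31 and 16 with 75th percentiles. For FVB129B6 against FVB glands, miR-181a lay from -0.67 to 0.00036 against the median of all miRNAs and miR-181b from -0.16 to 0.32, each below it under 6 of the 7 scalings, and miR-181c lay from 0.57 to 0.86 above it. miR-181c was called higher under 4 of the 7. All miRNAs called higher numbered 176 of 261 without scaling, 40 with quantiles, 44 with normexp and 50 with the median of detected miRNAs.

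**Figure D3:**
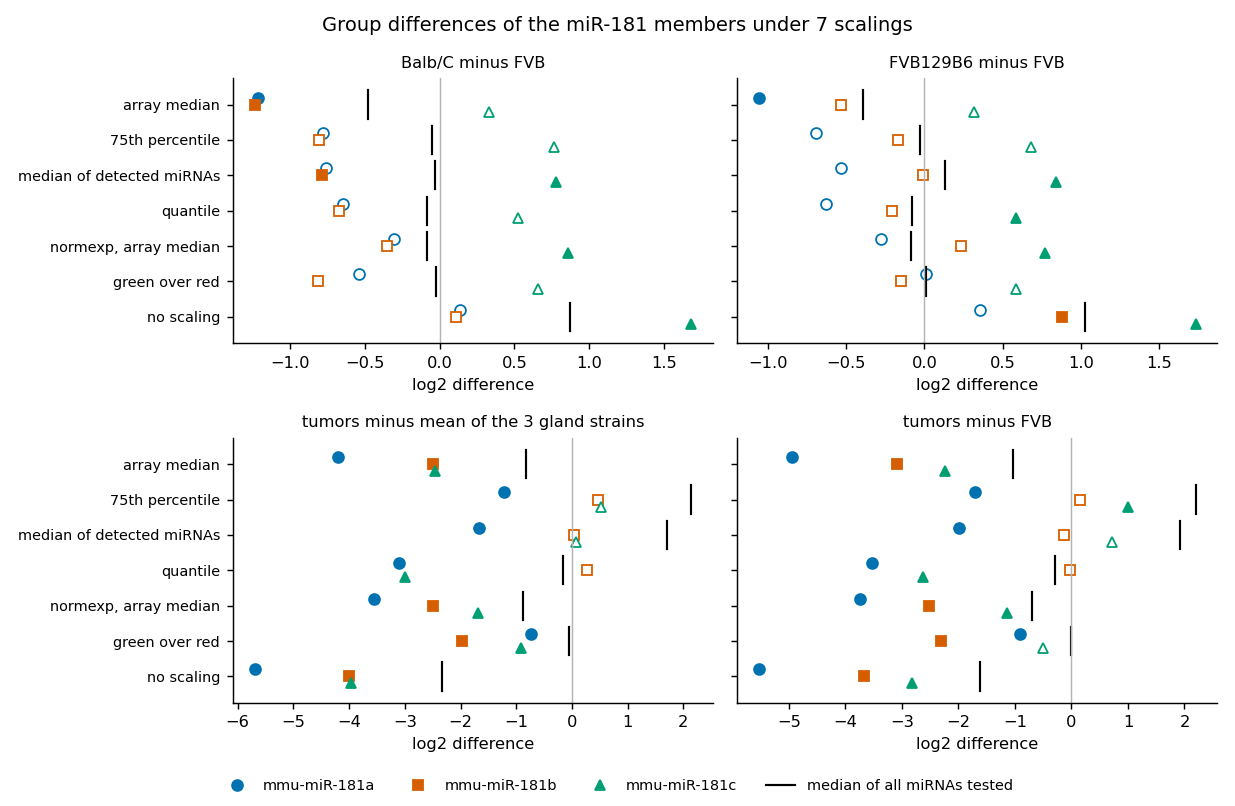
Log2 difference of each miR-181 member in 4 comparisons under 7 scalings, filled where the adjusted p was at most 0.05, with black lines for the median difference of all 261 miRNAs tested. In the upper panels miR-181c lies to the right of the black line under the 7 scalings, 4 of which fix its distance from the line, and in the lower panels, where no tumor array detected miR-181a or miR-181c, miR-181a is left of 0 throughout while miR-181b and miR-181c cross 0.

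The difference between 2 members on the same array does not depend on a constant scaling of that array, so it was compared between strains as well, a comparison chosen after the levels had been seen. Its size on one array has no meaning of its own, since probes differ in brightness. The signal of miR-181a minus that of miR-181c was 2.56 and 3.40 in FVB glands, 1.46, 1.82 and 1.53 in FVB129B6 glands, and 1.43, 1.62 and 1.26 in Balb/C glands. Both FVB glands were above all others, and the strains differed in an exact permutation test of the 560 assignments of strain labels, a test without direction (p = 0.0143, adjusted over 3 pairs of members p = 0.0214). For miR-181b minus miR-181c the values were 1.52 and 2.29 in FVB, 1.07, 1.10 and 0.99 in FVB129B6 and 0.40, 0.33 and 0.26 in Balb/C glands, with no overlap between any of the 3 strains. The exact permutation p of 0.00357 (adjusted p = 0.0107) was the smallest that this design can give.

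For miR-181a minus miR-181b the FVB129B6 glands stood apart, with 0.39, 0.72 and 0.54, against 1.04 and 1.11 in FVB and 1.03, 1.28 and 0.99 in Balb/C glands (exact permutation p = 0.0429, adjusted p = 0.0429). With green over red they did not, since their mean of -0.70 lay between -0.86 in FVB and -0.59 in Balb/C glands (exact permutation p = 0.0893). Across the 8 glands the levels of miR-181a and miR-181b moved together, with a Pearson correlation of 0.88, whereas miR-181c had correlations of -0.27 with miR-181a and -0.06 with miR-181b. These correlations are descriptions, as the glands share strains and a slide. They hold for the scale of array medians, and those of miR-181c may turn their sign without scaling, since the FVB arrays were dimmer. With 1 array left out, 140 or 210 assignments were left, and the p of miR-181b minus miR-181c was the smallest possible each time, which says nothing of its stability. The adjusted p-values of the other 2 pairs reached 0.0952. The threshold was missed for miR-181a minus miR-181c without FVB129B6 replicate 2 or 3, Balb/C replicate 1 or 3 or either FVB array, and for miR-181a minus miR-181b without any one FVB129B6 array, Balb/C replicate 1 or either FVB array.

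**Figure D4:**
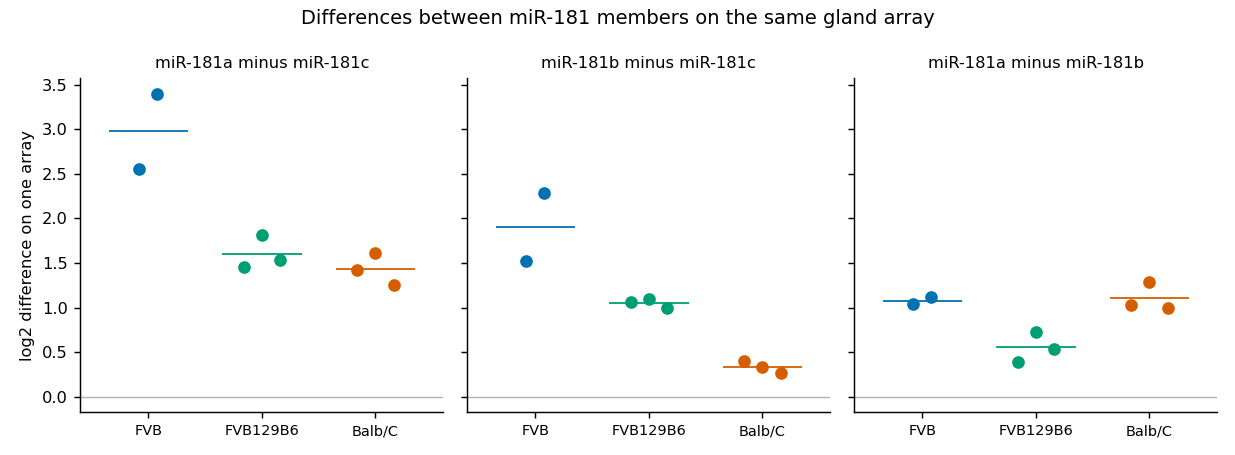
Log2 difference between 2 miR-181 members on the same gland array, by strain, with a point for each array and a line for the strain mean. For miR-181b minus miR-181c the 3 strains do not overlap, from 0.26 to 0.40 in Balb/C up to 1.52 and 2.29 in FVB glands.

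The miRNAs whose levels were most like those of miR-181a over the 8 glands, by Pearson correlation among 258 others, were let-7i (0.99), let-7e (0.99), miR-222 (0.98), miR-99b (0.98) and miR-685 (0.97). For miR-181b they were miR-146b (0.99), miR-210 (0.99), miR-200c (0.98), miR-187 (0.98) and miR-34a (0.96). For miR-181c they were miR-195 (0.94), miR-379 (0.92), miR-496 (0.89), miR-699 (0.88) and miR-434-5p (0.85). No miRNA stood in more than 1 of these lists, which rest on the scale of array medians.

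The glands also differed in markers of other tissues, beside 37.9% of all miRNAs called in either direction between Balb/C and FVB glands and 39.5% between FVB129B6 and FVB glands. All 3 skeletal muscle miRNAs measured of 4 listed, miR-1, miR-133b and miR-206, were called lower in FVB than in either other strain. miR-206, for example, had a log2 difference of 5.40 for Balb/C and 4.82 for FVB129B6 glands over FVB. Their summed level, as a multiple of the array median, was 12.4 and 64.9 in FVB, 349 to 395 in FVB129B6 and 577 to 1001 in Balb/C glands, and all 3 were well above background on each gland array. The brightest signal was that of miR-133b throughout, which is no order of abundance, since probes differ in brightness. The erythroid miRNAs miR-451, miR-144 and miR-486 went the other way, with a summed level of 741 and 782 in FVB, 113 to 167 in FVB129B6 and 204 to 422 in Balb/C glands, with the brightest signal from miR-451 and all 3 well above background throughout. All 3 were called between FVB129B6 and FVB glands, and miR-451 alone between Balb/C and FVB glands. These levels and calls rest on the scale of array medians. Without scaling, the median Balb/C minus FVB difference of all miRNAs moved from -0.48 to 0.87. The differences of miR-451 (-1.38), miR-144 (-0.75) and miR-486 (-0.44) between these 2 strains thus depend on the scaling. Between Balb/C and FVB129B6 glands miR-486 was called (1.39, adjusted p = 0.0332), beside 3.45% of all miRNAs. Their part in the miR-181 differences was not tested, and in a whole gland fewer cells of a type cannot be told from less RNA per cell.

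Among 8 leukocyte miRNAs, 7 were measured, and miR-146b (-1.62, adjusted p = 0.0229) was the one called between Balb/C and FVB glands, a share below that of all miRNAs. miR-155, an inflammatory miRNA of activated lymphocytes, had a difference of 1.02 (adjusted p = 0.238) and miR-142-5p, a pan-leukocyte miRNA, of 0.48 (adjusted p = 0.745). None of the 7 was called between the other pairs of strains. The median difference of the list was -0.17 between Balb/C and FVB glands, beside -0.48 for all miRNAs, and it was -0.57 between FVB129B6 and FVB glands, beside -0.39. The summed level of the list ranged from 188 in a Balb/C to 770 in an FVB gland, and miR-146b gave its brightest signal in all glands except Balb/C replicate 2, where miR-142-5p did.

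Of the 11 miRNAs of the TGF-beta and EMT list, all measured, 2 were called between Balb/C and FVB glands, beside 37.9% of all miRNAs. On the scale of array medians these were miR-200c, a keeper of the epithelial state, which was lower in Balb/C (-1.29, adjusted p = 0.0429), and miR-21, a miRNA raised in many tumors, which was higher (0.56, adjusted p = 0.0464). Between FVB129B6 and FVB glands miR-21 alone was called, as higher (0.70, adjusted p = 0.0196), and none between Balb/C and FVB129B6 glands. The median of this list was -0.67 between Balb/C and FVB glands. Each of the 8 gland arrays detected all 7 epithelial markers. On the scale of array medians miR-200c and miR-203 (-0.99, adjusted p = 0.0392) were called lower in Balb/C glands than in those of FVB mice. The median difference of all miRNAs moved from -0.48 to 0.87 without scaling, so the signs of both depend on the scaling. The 4 fibroblast and smooth muscle miRNAs and miR-126-5p, the 1 endothelial miRNA measured of 2 listed, were called between no pair of strains.

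The C3(1)/Tag tumors had much weaker miR-181 signals, on arrays that were weak as a whole. miR-181a had levels of 0.26, 0.08 and 0.39, miR-181b of 0.83, 0.82 and 1.45, and miR-181c of 0.07, -0.04 and -0.11. On this scale every tumor value was below every gland value of the same member. The mean green intensity of miR-181a was 149 to 228 in tumors, that of miR-181b 282 to 447 and that of miR-181c 119 to 184. Random 22-base control spots had medians of 114 to 160 on the same arrays, and none of the 16 was well above background. On gland arrays their medians were 14.4 to 22.0. Only 15 to 64 of the 334 miRNAs were well above background on a tumor array, against 209 to 262 on a gland array, and the spots of a member scattered more, with a median SD on the log2 scale of 0.62 against 0.07 for miR-181a.

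Since no tumor array detected miR-181a or miR-181c, and 1 of 3 detected miR-181b, the tumors allow only bounds, set by the lowest level well above background on each array. On the scale of array medians, miR-181a was at least 6.25-fold lower in tumors than in the mean of the 3 gland strains, miR-181c at least 1.56-fold lower, and miR-181b, with its 2 undetected arrays raised to that level, 3.17-fold lower. The median spot of the tumor arrays, 125 to 170, was itself near the control spots. Control spots had median levels of -0.13 to -0.03 there, against -4.97 to -3.71 on gland arrays. The bounds thus hold for that scale alone and are no minimum for the fall of a miRNA. In limma's fit of the signals as measured, the adjusted p was 1.38e-08 for miR-181a, 2.08e-07 for miR-181c and 2.41e-06 for miR-181b. These p-values do not support the bounds, since the members had passed the filter through the 8 glands and are compared there with a tumor signal near that of the control spots. A fit of the raised signals has the same limit, as it sets glands against substituted tumor values. With 75th percentiles or quantiles no member had a bound above 1-fold against the mean of the glands, and with the median of detected miRNAs miR-181a alone did, at 1.08-fold. With the signals as measured 52.5% of all 261 miRNAs were called lower in tumors. This share depends on the filter, since of all 334 miRNAs 138 were called lower and 173 higher, with a median difference of 0.67 in place of -0.83.

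Against FVB glands alone, the strain of the tumors, miR-181a was at least 10.6-fold lower, miR-181b, bounded in the same way, 4.77-fold lower and miR-181c at least 1.34-fold lower. These bounds too hold for the scale of array medians alone. All 3 were called with the signals as measured, where again 52.5% of all miRNAs were called lower, but miR-181c was not called with the signals raised (adjusted p = 0.248). The bound of miR-181a fell to 1.12-fold with 75th percentiles and 1.36-fold with the median of detected miRNAs, and quantiles left none. miR-181b and miR-181c had no bound above 1-fold under these 3 scalings. The signal of miR-181a as measured was lower in tumors under the 7 scalings in both comparisons, whereas the differences of miR-181b and miR-181c turned their sign. No tumor array detected miR-181a, and its tumor signal was near that of the control spots. Its constant sign thus does not by itself show a fall. With 75th percentiles miR-181c was called higher in tumors than in FVB glands (1.00, adjusted p = 0.0134). No tumor array detected it, so this call gives no direction. The median difference of all miRNAs from the mean of the glands moved from -0.83 with array medians to 2.14 with 75th percentiles, and the split of all calls turned, from 99 higher and 137 lower with array medians to 172 and 70 with 75th percentiles. The tumor arrays were on another slide than the glands and were read with another version of the scanner program, so tumor and slide cannot be told apart.

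Most of the other lists had lower signals on the tumor arrays as well on the scale of array medians. As for the members, calls on these lists do not support a difference, since they mostly set glands against undetected or substituted tumor values. Bounds on this scale have the same limit as those of the members. All 7 epithelial markers were called lower than in the glands, with a summed level of 19.2 to 25.6 against 267 to 891 in glands. On a tumor array 1 to 4 of the 7 were well above background, and 3 were so on none, so the tumor sums include undetected signals. Of the TGF-beta and EMT list 10 of 11 were called lower, and 5 of the 11 were detected on no tumor array, among them the epithelial miR-200b, at least 36.2-fold lower, and miR-141, at least 19.4-fold lower. The median difference of this list was -4.18 with undetected signals replaced by the level that sets the bounds, beside 0.41 for all miRNAs, and 9 were then called lower and 1 higher, beside 37.5% lower and 49.4% higher of all miRNAs. Of the leukocyte list 5 of 7 were called lower, beside 52.5% of all miRNAs, and with signals so replaced 5 lower and 1 higher, with a median of -1.76, beside those 37.5% and 49.4% of all miRNAs. The 1 called higher in both lists was miR-155, which no tumor array detected, so that its tumor level is only an upper limit. No tumor array detected miR-146b, at least 67.5-fold lower, miR-142-5p, at least 6.76-fold lower, or miR-146, at least 3.39-fold lower. With 75th percentiles these bounds fell to 4.61-fold for miR-200b, 2.47-fold for miR-141 and 8.59-fold for miR-146b, and none was left for miR-142-5p or miR-146. All 4 fibroblast and smooth muscle, all 3 erythroid and all 3 skeletal muscle miRNAs were called lower than in the mean of the glands. Of these, 2, 3 and 1 were detected on no tumor array. With undetected signals so replaced 3, 2 and 2 were called lower, and the erythroid miR-144, undetected in tumors, was called higher. Against FVB glands alone miR-206 was called higher in tumors (1.74, adjusted p = 0.0199) and miR-133b was not called (adjusted p = 0.0915), each detected on 1 of 3 tumor arrays. For the endothelial list no direction can be read. The fit called miR-126-5p higher in tumors than in the mean of the glands (3.28) and than in FVB glands (2.64), but no tumor array detected it. Its tumor level is thus only an upper limit, which leaves no fold. The part of these shifts in the miR-181 differences was not tested.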

How the data were processed

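Total RNA was labelled with Hy3 and hybridized to a custom Agilent miRNA array. The authors deposited Feature Extraction scans with green and red intensities, from which the program had subtracted background and which it had dye normalized, and a table of log2 values that equals the log2 green intensity less 1 constant per array. What the red channel holds is not given in the sources used here. Program versions were 9.5.1.1 (tumors) and 10.5.1.1 (glands), and no spot was saturated. The log2 green intensity minus the array median over 1336 spots was averaged over the 4 spots of a miRNA without those marked as outliers. A miRNA was tested when at least 50% of its spots were well above background on at least 3 arrays. The 8 glands, and all 11 arrays in 4 groups, were fitted with limma 3.58.1 (R 4.3.3), with Benjamini-Hochberg adjustment over 261 miRNAs and a threshold of 0.05. The labels do not say that arrays are separate animals, so p-values measure the spread between these arrays, whose number limits precision. The fits were tested on simulated data, the outcome of which is not reported here. Named miRNAs are all members, the 5 most correlated with each, and among the 3 largest differences of each list (leukocytes, TGF-beta and EMT, mammary epithelium, erythroid cells, skeletal muscle, endothelium, fibroblasts and smooth muscle). Members and lists were chosen with earlier results of these data known. Alternatives were other scalings, normexp (offset 50), the deposited table, green over red, other filters, a floor, a replicate block, an intensity trend and each array left out. Within-array differences, the bounds under other scalings and those of the lists were added after seeing the data. Other tools were Python 3.11.15, numpy 2.4.6, pandas 2.3.3 and matplotlib 3.10.9.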

Additional observations from a re-analysis of the deposited data

Results flagged for a closer look

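The red channel entered only the green-over-red alternative, and what was labelled in it is not given in the sources used here. It nevertheless carried signal for the family. At least 50% of the red spots were well above background for miR-181a, for miR-181b and for miR-181c on 8 of the 8 gland arrays, and for miR-181b on 3 of the 3 tumor arrays. Mean red intensities of miR-181a were 11200 to 17850 on gland arrays and 370 to 515 on tumor arrays. Those of miR-181b were 2895 to 6770 and 754 to 1235, and those of miR-181c 810 to 2290 and 145 to 170. No group had enough arrays to single out an outlying one.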

How the results depend on the processing

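The miR-181 members called depended on the scaling. Among the 3 strains 2 members were called with array medians, 0 with 75th percentiles, quantiles or green over red, and 1 with normexp, with the replicate block or with the 2 like-titled Balb/C arrays averaged. Calls over all 261 miRNAs were 120, 76, 79, 60, 125 and 96 in that order, and 101 of 256 with the averaged arrays. Between Balb/C and FVB glands 2 were called, both lower in Balb/C, against 0 with 75th percentiles, quantiles or green over red. The 1 called with normexp (adjusted p = 0.0125) or without scaling (0.00108) was another, miR-181c as higher, and the median of detected miRNAs called miR-181b lower (0.0486) and miR-181c higher (0.0182). Between FVB129B6 and FVB glands 1 was called, miR-181a as lower, which none of the other 6 scalings called. They called 0 with 75th percentiles or green over red, miR-181c as higher with quantiles (adjusted p = 0.0406), normexp (0.0160) or the median of detected miRNAs (0.0114), and 2 without scaling, miR-181b and miR-181c, both higher. Over all miRNAs, 99 were called between Balb/C and FVB glands with array medians, 47 with 75th percentiles, 59 with quantiles and 65 with green over red, and between FVB129B6 and FVB glands 103, 83, 92 and 39. Between tumors and the mean of the glands 3 were called, beside 236 of all 261 miRNAs. 1 was called with 75th percentiles (beside 242) or the median of detected miRNAs (237). With quantiles (179) 2 were called, not miR-181b (adjusted p = 0.396). Between tumors and FVB glands 3 were called, beside 230. With that median (224) 1 was called, and 2 with quantiles (169), green over red (157), undetected signals raised (222) or 75th percentiles (229). With the last, miR-181c was called higher in tumors (adjusted p = 0.0134). With 1 array left out, 0 to 2 members were called among the strains, 0 to 2 between Balb/C and FVB and 0 to 2 between FVB129B6 and FVB glands.

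Signs turned as follows. Without scaling, the Balb/C minus FVB difference was 0.14 for miR-181a and 0.11 for miR-181b, and the FVB129B6 minus FVB difference 0.36 and 0.88. The latter was 0.011 for miR-181a with green over red and 0.23 for miR-181b with normexp. Tumors minus the mean of glands was 0.48 for miR-181b and 0.52 for miR-181c with 75th percentiles, 0.26 for miR-181b with quantiles, and 0.032 and 0.072 with the median of detected miRNAs. Tumors minus FVB was 0.15 for miR-181b and 1.00 for miR-181c with 75th percentiles and 0.72 for miR-181c with the median of detected miRNAs. The Balb/C minus FVB129B6 difference of miR-181c, 0.014, was -0.060 with quantiles, -0.046 without scaling, -0.059 with the median of detected miRNAs and -0.0089 with the averaged Balb/C arrays, and ran from -0.16 to 0.15 with 1 array left out. The cause was not tested. Of 351 single differences under an alternative, 301 kept their sign and side of the threshold.

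The range of strain means of miR-181a minus miR-181b was 0.55 and fell to 0.27 with green over red (adjusted p = 0.0893), with 0.47 to 0.64 when 1 array was left out. It was 1.12 to 1.97 for miR-181a minus miR-181c and 1.19 to 1.96 for miR-181b minus miR-181c. Replicate numbers did not pair the arrays, since deviations from group means had a mean correlation of 0.04 over 15 pairs with the same number and -0.02 over 30 with different numbers. For tumors, 75th percentiles, quantiles and the median of detected miRNAs left no bound for miR-181c, and for miR-181a quantiles left none and 75th percentiles 1.12-fold against FVB alone. Other bounds of miR-181a, against the mean of the glands and FVB, were 1.08-fold and 1.36-fold with that median, and 10.2-fold and 11.7-fold with normexp, with which those of miR-181c were 2.72-fold and 1.86-fold. The mean signals of miR-181a and miR-181c on tumor arrays were within the range of control spots.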
